A study of Mus musculus with 4 samples.

Results

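The Gimap genes encode GTPases of immunity-associated proteins, a family of small GTP-binding proteins found mainly in lymphocytes. The 8 members Gimap1, Gimap3, Gimap4, Gimap5, Gimap6, Gimap7, Gimap8 and Gimap9, were taken by gene symbol from a table of 26611 genes. RNA was sequenced from natural killer (NK) cells sorted from the spleens of 2 Tcf7 knock-out (KO) mice and 2 wild-type (WT) mice, with 1 mouse per library. Both genotypes had the C57BL/6 strain background, and the cells were TCRbeta-negative and bore NK1.1, NKp46, CD11b and KLRG1, the last 2 of which mark mature NK cells. The labels give no age, sex or treatment and do not say which part of Tcf7 was removed or in which cells. Tcf7 encodes Tcf-1, a DNA-binding factor of the Tcf/Lef family that acts with beta-catenin and is needed for normal lymphocyte development.

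GIMAP proteins share a GTP-binding domain, and several sit on the membranes of the endoplasmic reticulum, mitochondria, lysosomes or Golgi, where they bear on whether a resting lymphocyte survives. Loss of Gimap5 depletes T cells and NK cells in mice, and loss of Gimap1 removes most mature T and B cells. Because the family supports lymphocyte survival and the series removes a factor of lymphocyte development, the level of each member was compared between cells with and without Tcf7.

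The 8 genes lie side by side on chromosome 6, within 124 kb of the mm10 assembly (48647186 to 48770851). In order along the chromosome they are Gimap8 (48647186 to 48660875), Gimap9 (48676121 to 48679116), Gimap4 (48684578 to 48692062), Gimap6 (48701583 to 48708244), Gimap7 (48718621 to 48724636), Gimap1 (48739047 to 48743795), Gimap5 (48746197 to 48754200) and Gimap3 (48764464 to 48770851). All are protein-coding. Gimap6 and Gimap3 are read from the minus strand and the other 6 from the plus strand.

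The sequences before 3 of the genes are shown because they stand for the 3 cases the results turn on, namely the only member with a Tcf/Lef match, the member with the widest difference between genotypes and the member with the highest level. Each is the 250 bases before the annotated start, read 5′ to 3′ on the gene's own strand, from RefSeq on GRCm38.p6. Capitals mark a match to the Tcf/Lef core, searched on both strands as CTTTGNN with A or T at either N.
Gimap3, chr6:48770852-48771101, minus strand: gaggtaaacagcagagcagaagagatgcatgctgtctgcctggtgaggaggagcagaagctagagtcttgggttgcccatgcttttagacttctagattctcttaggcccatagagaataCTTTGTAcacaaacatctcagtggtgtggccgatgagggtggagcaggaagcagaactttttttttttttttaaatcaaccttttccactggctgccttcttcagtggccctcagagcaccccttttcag
Gimap6, chr6:48708245-48708494, minus strand: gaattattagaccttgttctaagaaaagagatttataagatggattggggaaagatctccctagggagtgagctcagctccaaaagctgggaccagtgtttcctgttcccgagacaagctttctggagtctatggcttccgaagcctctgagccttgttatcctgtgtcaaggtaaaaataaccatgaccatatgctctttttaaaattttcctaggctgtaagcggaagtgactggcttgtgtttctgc
Gimap4, chr6:48684328-48684577, plus strand: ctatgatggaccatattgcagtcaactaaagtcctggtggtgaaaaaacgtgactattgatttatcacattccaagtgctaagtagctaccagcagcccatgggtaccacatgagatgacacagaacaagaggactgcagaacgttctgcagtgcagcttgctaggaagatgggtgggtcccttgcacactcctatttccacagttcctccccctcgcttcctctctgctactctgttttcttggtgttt

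The Tcf/Lef core occurred before 1 of the 8 members, against 14.9% of 27025 genes with a window of the same length. An Ets core was searched only as AGGAAGT on either strand, and this spelling occurred before 1 member, Gimap5, against 7.80% of all genes. Other Ets spellings were not searched. A Runx core, TGTGGT on either strand, occurred before Gimap4, Gimap7 and Gimap1, against 14.2% of all genes. None of the 3 motifs overlapped another in these windows. A match describes these letters only and shows neither binding nor its absence.

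Reads of near-identical genes can be split or lost in counting, and Gimap3 and Gimap5, which arose by duplication, were the only members to share a stretch of transcript as long as 50 bases. Of their distinct 50-base windows in GENCODE M21 transcripts, 7.52% of those of Gimap3 and 4.53% of those of Gimap5 were found in the other gene. The longest stretch in common held 140 bases of the Gimap3 coding sequence. It is shown because a read that lies wholly within it matches both genes equally.
Gimap3 and Gimap5, shared: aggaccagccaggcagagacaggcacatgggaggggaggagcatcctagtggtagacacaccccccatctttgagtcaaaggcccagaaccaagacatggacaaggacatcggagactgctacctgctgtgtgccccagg
In the same annotation, 36.0% of the exon bases of Gimap1 lie opposite exons of Gimap1os, an antisense transcript. Whether the counting used strand is not given in the sources used here, so the level of Gimap1 may include antisense reads. Short stretches of Gimap1, Gimap5 and Gimap7 exons, between 3.48% and 6.44% of each, also belong to Gm28053, a gene model annotated across them.

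Total counts were 28254693 and 37384979 in KO libraries 1 and 2, and 31860505 and 40175537 in WT libraries 1 and 2. Tcf7 itself stood at 11.2 and 25.05 CPM (counts scaled to the library total with TMM factors) in the KO libraries, against 89.5 and 79.1 CPM in the WT libraries. The KO libraries were both lower than either WT library, and the log2 fold change was -2.22 (SE 0.45). The adjusted p over all 12723 genes tested was 1.00 with edgeR's quasi-likelihood test and 0.00216 with DESeq2. The counts do not show which exons the remaining Tcf7 reads came from. The defining NK cell gene Ncr1, which encodes the sorted protein NKp46, stood at 1611 and 1510 CPM in KO libraries and 1732 and 1557 CPM in WT libraries. Of 10 NK cell markers, 5 had a log2 fold change above 0 and 5 below, and neither edgeR nor DESeq2 called one. In 1 of them both KO libraries lay above both WT libraries, against 9.64% of all genes tested. This was Klrg1, which encodes the sorted protein KLRG1, at 1410 and 915 CPM in KO libraries and 817 and 740 CPM in WT libraries (log2 fold change 0.58, SE 0.28).

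Mature NK cells of both genotypes expressed all 8 Gimap genes at high levels, and no member passed the test between genotypes. Together the members held 0.372% and 0.331% of all counts in the KO libraries and 0.398% and 0.364% in the WT libraries. Summed over the family, the level was 3506 ± 103 CPM in KO cells and 3810 ± 128 CPM in WT cells (SD, n = 2 each). Both KO sums, 3580 and 3433 CPM, lay below both WT sums, 3901 and 3720 CPM. In bulk RNA, fewer cells expressing a gene and less RNA per cell cannot be told apart.

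Levels of different genes are compared here as RPKM, the TMM-scaled CPM per kilobase of the gene length in the deposited table. Gimap4 was the highest member, at 662 and 639 RPKM in KO libraries, against 741 and 632 RPKM in WT libraries. In mice Gimap4 is known as a lymphocyte GTPase that hastens the death of T cells once apoptosis has begun. It held 33.8% of the family's summed RPKM in KO cells and 32.8% in WT cells, and ranked place 93 among all genes tested. Gimap5, the member whose loss depletes NK cells in mice, was the lowest, at 67.8 and 75.7 RPKM in KO libraries and 70.6 and 72.1 RPKM in WT libraries. Even so, with the table's gene lengths, 90.1% of the genes tested had a lower RPKM than Gimap5. With its GENCODE M21 exon length, Gimap5 stood at 33.6 RPKM in KO and 33.4 RPKM in WT cells. Its place among all genes was not worked out with GENCODE lengths.

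With these lengths the order of the levels was the same in both genotypes, namely Gimap4, Gimap6, Gimap3, Gimap1, Gimap9, Gimap7, Gimap8 and Gimap5. The highest member exceeded the lowest 9.06-fold in KO cells and 9.62-fold in WT cells. This order rests on the gene lengths of the table, which for Gimap6, Gimap7, Gimap1 and Gimap5 are 1612, 1269, 1505 and 1943 bases, against 3496, 2325, 3073 and 4149 exon bases in GENCODE M21. With GENCODE exon lengths, a choice made after seeing the data, Gimap4 stayed highest and Gimap5 lowest, but 19.1-fold apart in KO cells and 20.2-fold apart in WT cells. Gimap3 then stood above Gimap6 and Gimap8 above Gimap7 in both genotypes, and Gimap9 above Gimap1 in KO cells. Comparisons of KO with WT for 1 gene do not use the length. With the table's lengths, neighbours in the order had separate ranges, except Gimap9 (135 to 160 RPKM) and Gimap7 (93.4 to 141 RPKM) in the KO libraries. Gimap6 and Gimap3 in KO libraries, at 305 to 344 and 292 to 302 RPKM, and Gimap7 and Gimap8, at 93.4 to 141 and 88.9 to 92.8 RPKM, were separated by little. With 2 libraries each, a separate range is a description and not a test.

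**Figure D1:**
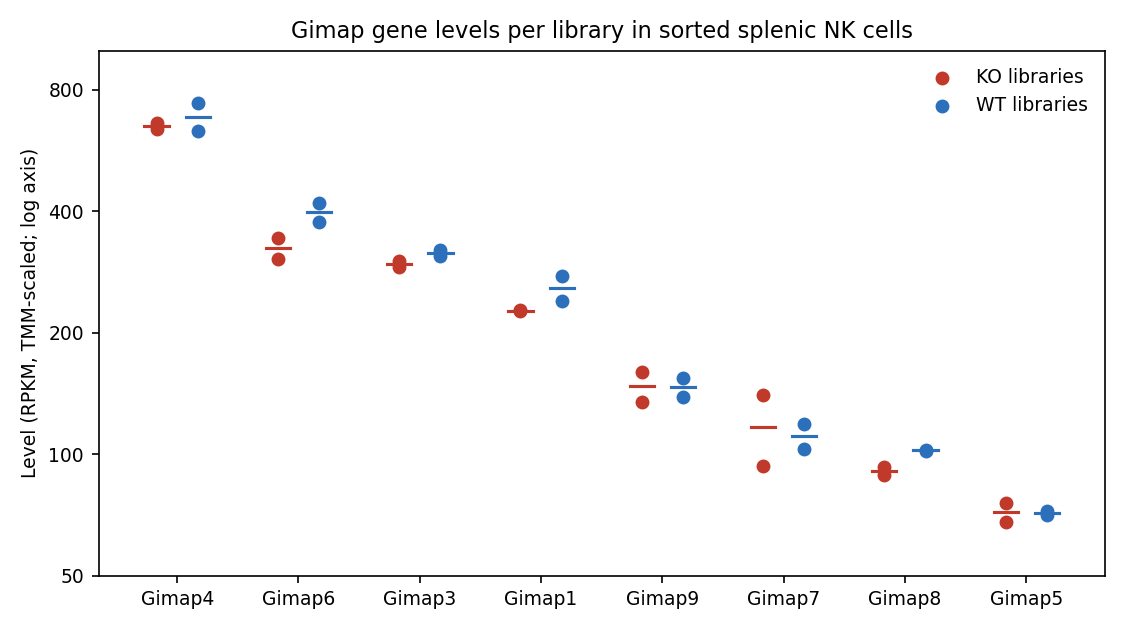
Levels of the 8 Gimap genes on a log axis, in RPKM with TMM scaling, with 1 point per library (KO red, WT blue) and a bar at the mean of 2 libraries. Gimap4 lies highest in both genotypes (651 RPKM in KO, 686 RPKM in WT) and Gimap5 lowest (71.8 and 71.4 RPKM), and with the gene lengths of the deposited table the order is the same in both.

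Within the cluster the level did not follow position. The genes at the outer ends, Gimap8 and Gimap3, had mean levels of 90.9 and 297 RPKM in KO cells and 102 and 316 RPKM in WT cells. Gimap5 and Gimap1, which are neighbours on the same strand, differed from each other by more than 3 times in either genotype (71.8 and 227 RPKM in KO cells, 71.4 and 258 RPKM in WT cells). Outside the cluster the table listed 14 further genes within 200 kb of its ends, of which 8 passed the filter on low counts. The most highly expressed of them by CPM were Lrrc61, Repin1 and Zfp862-ps. Lrrc61, a leucine-rich repeat gene, had 52.5 and 56.3 CPM in KO libraries and 66.2 and 69.9 CPM in WT libraries (log2 fold change -0.32, SE 0.20, edgeR adjusted p = 1.00). Repin1 (log2 fold change -0.05, SE 0.33) and the pseudogene Zfp862-ps (-0.08, SE 0.42) differed less. All 8 neighbours tested had a log2 fold change below 0, with a median of -0.30, against 51.8% of all genes tested below 0. Of the 8, 3 had both KO libraries below both WT libraries, against 11.6% of all genes tested. None was called by edgeR over all genes or by DESeq2, and 1, Sspo, had an unadjusted edgeR p under 0.05, against 2.84% of all genes. Sspo, which was chosen after its values were seen, stood at 0.852 and 0.749 CPM in KO libraries and 1.63 and 2.85 CPM in WT libraries.

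**Figure D2:**
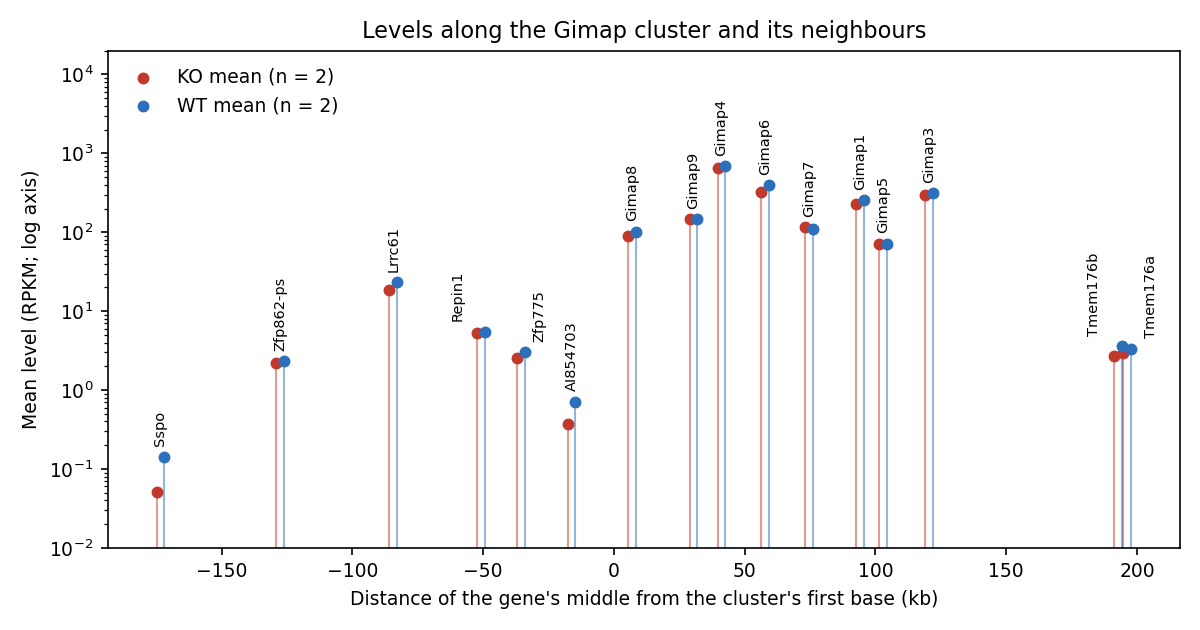
Mean level on a log axis (RPKM) of each Gimap gene and of the neighbouring genes tested, against the distance in kb of the gene's middle from the first base of the cluster, with KO (red) drawn just left of WT (blue), n = 2 each. The Gimap genes stand between 71.4 and 686 RPKM, and the highest neighbour, Lrrc61, stands at 18.7 RPKM in KO and 23.4 RPKM in WT.

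Over all 12723 genes, edgeR called 0 between KO and WT at an adjusted p under 0.05, which is 0% of them, so 0 of 8 members called stands against that background. An unadjusted p under 0.05 was reached by 361 genes (2.84%) and by none of the 8 members. DESeq2 called 71 genes (0.558%) and limma voom 0 (0%), and neither called a member. At 2 libraries per genotype, exact permutation of the labels cannot reach a p below 0.333.

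The median log2 fold change was -0.08 over the 8 members, of which 3 lay above 0 and 5 below, and -0.01 over all genes tested. In 4 members, Gimap1, Gimap3, Gimap6 and Gimap8, either KO library was lower than either WT library, and in none were both higher. Over all genes tested, 11.6% had both KO libraries below and 9.64% both above. Among the 1260 genes with a mean RPKM at least that of Gimap5 by the table's lengths, 7.46% had both KO libraries below and 7.78% both above. In this set the median log2 fold change was 0.04, with 744 genes above 0 and 516 below. The counts over the 8 members describe the family and were not tested, and the members are neighbours in 1 locus. The median log2 fold change over all genes lay between -0.03 and 0.05 under every scaling, test and set of libraries tried.

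Gimap6, whose protein binds the autophagy protein GABARAPL2, showed the widest difference of the 8. It had 554 and 492 CPM in KO libraries, against 676 and 608 CPM in WT libraries. Both KO libraries were lower, and the gap between the nearest libraries of the 2 genotypes was smaller than the gap between the libraries within either genotype. The mean was 523 ± 44.5 CPM in KO and 642 ± 48.4 CPM in WT cells (SD, n = 2 each), or a log2 fold change of -0.30 (SE 0.20, edgeR unadjusted p = 0.206, adjusted p = 1.00). The 95% interval ran from -0.83 to 0.24, that is from 0.563-fold to 1.18-fold of the WT level. Compared number by number, KO over WT gave a log2 ratio of -0.29 for the libraries numbered 1 and -0.31 for those numbered 2.

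Gimap1, which mature T and B cells of mice need to survive, had 340 and 343 CPM in KO libraries, against 360 and 417 CPM in WT libraries. The KO libraries were nearly equal and both lower, and the WT libraries differed from each other 1.16-fold. The log2 fold change was -0.19 (SE 0.20, 95% interval -0.71 to 0.34). Gimap8, which has several GTP-binding domains where the other members have a single one, had 329 and 343 CPM in KO libraries, against 377 and 379 CPM in WT libraries. Its groups did not overlap, and the gap between them was wider than the spread within either, yet the log2 fold change was only -0.17 (SE 0.18, 95% interval -0.66 to 0.32). The SE rests on a spread that the model shares across genes, and the model holds genotype alone. With the library number added to the fit as a block, the SE of Gimap8 was 0.13.

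Gimap3 is the mouse paralogue of Gimap5 and its protein lies on mitochondria. It had 625 and 647 CPM in KO libraries, against 665 and 689 CPM in WT libraries, again with the KO libraries lower. Its log2 fold change was -0.09 (SE 0.19, 95% interval -0.59 to 0.41). This was the member with the Tcf/Lef core in the window shown above. Gimap5 had 132 and 147 CPM in KO libraries, against 137 and 140 CPM in WT libraries, so that the WT libraries lay between the KO libraries. Its log2 fold change was 0.01 (SE 0.19, 95% interval -0.50 to 0.52). With the counts of Gimap3 and Gimap5 added up and fitted as 1 gene, which removes any split of reads between them, the log2 fold change was -0.07 (SE 0.19). The sum cannot bring back reads that the counting gave to neither gene.

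The genotypes also overlapped in Gimap4, Gimap9 and Gimap7. Gimap4 had 1199 and 1157 CPM in KO libraries, against 1341 and 1144 CPM in WT libraries (log2 fold change -0.08, SE 0.20, 95% interval -0.62 to 0.46). Gimap9 had 221 and 187 CPM in KO libraries, against 214 and 192 CPM in WT libraries (log2 fold change 0.01, SE 0.21, 95% interval -0.54 to 0.56). In both genotypes library 1 was the higher one for these 2 genes.

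Gimap7, whose human protein was shown to activate the GTPase of another family member, was the most variable. It had 178 and 119 CPM in KO libraries, against 131 and 150 CPM in WT libraries, so that both WT libraries lay between the KO libraries. The KO libraries differed 1.50-fold, while the other 7 members differed at most 1.19-fold between KO libraries. The log2 fold change was 0.08 (SE 0.28), with a 95% interval from -0.66 to 0.81, the widest of the 8. Compared number by number, KO over WT gave a log2 ratio of 0.44 for the libraries numbered 1 and -0.34 for those numbered 2. The raw counts behind this were 5230 and 4275 in KO and 4260 and 5910 in WT libraries, where the 95% counting interval reached at most 3.05% above the count.

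**Figure D3:**
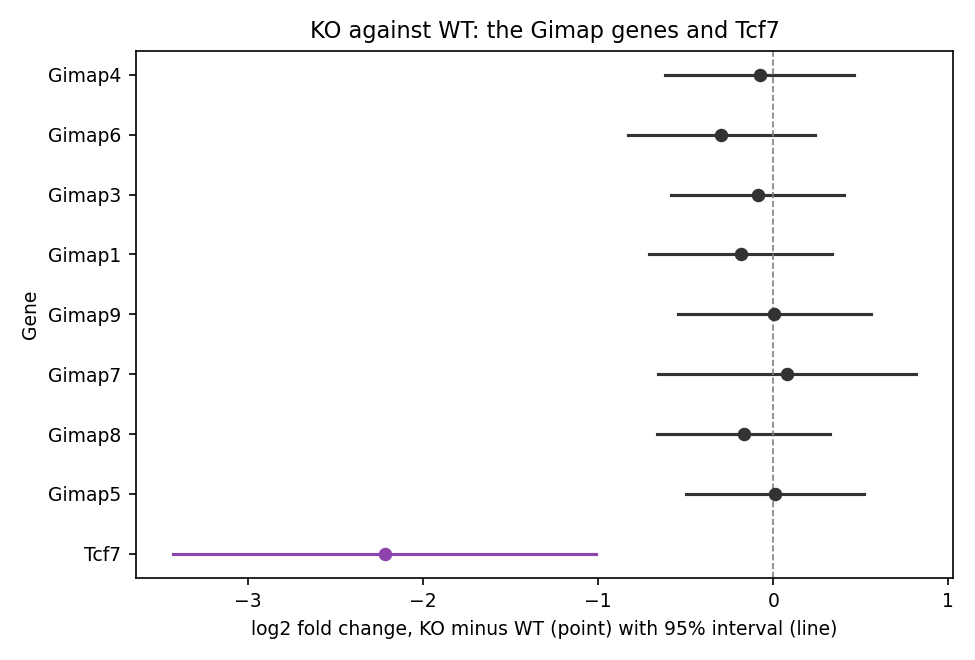
Log2 fold change of KO over WT (point) and its 95% interval (line) from edgeR's fit for each Gimap gene, ordered by level, and for Tcf7. All 8 Gimap intervals include 0, with points between -0.30 and 0.08, and the Tcf7 interval runs from -3.42 to -1.01.

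Leaving out a library turned the sign of the 4 members nearest to 0. Gimap7 turned to -0.25 on the log2 scale without KO library 1 and to -0.02 without WT library 1. Gimap9 turned to -0.12 without KO library 1 and -0.05 without WT library 2, Gimap5 to -0.04 without KO library 2 and -0.01 without WT library 1, and Gimap4 to 0.04 without WT library 1. Gimap1, Gimap3, Gimap6 and Gimap8 stayed below 0 in each such fit.

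**Figure D4:**
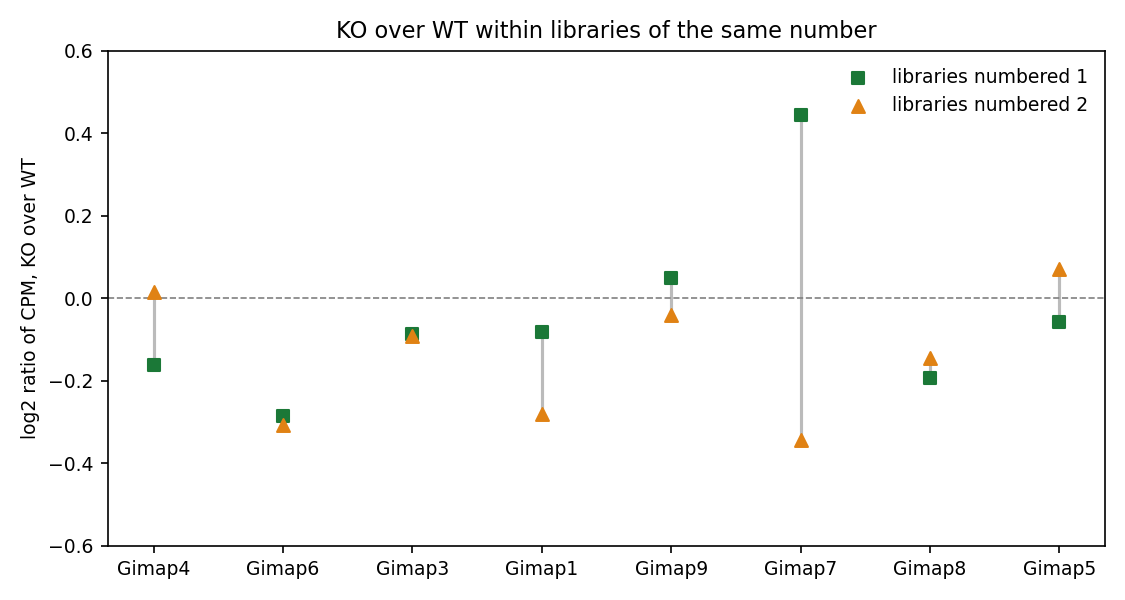
Log2 ratio of CPM, KO over WT, of each Gimap gene between libraries numbered 1 (squares) and between libraries numbered 2 (triangles), joined by a line. Gimap6 lies at -0.29 and -0.31 and Gimap3 at -0.09 and -0.09, whereas Gimap7 lies at 0.44 and -0.34.

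Every member was deeply counted. The smallest member count in any library was 3865, for Gimap5 in KO library 1, and its 95% Poisson interval reached 3.13% below and 3.20% above the count. The SE of the members ran from 0.18 to 0.28 on the log2 scale, with a median of 0.20, against a median of 0.32 over all genes. The intervals come from the fit on genotype alone. They leave room for a level in KO cells of 0.563-fold (Gimap6) at the lowest and of 1.76-fold (Gimap7) at the highest. P-values above the threshold do not show that the genotypes are alike.

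**Figure D5:**
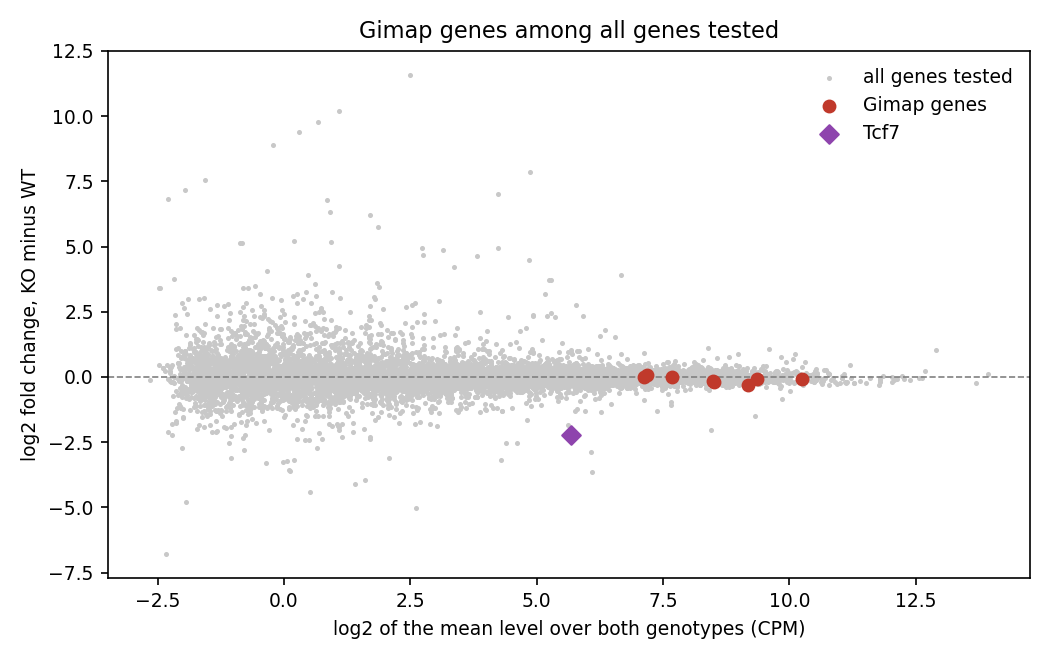
Log2 fold change of KO over WT against the log2 of the mean CPM over both genotypes for the 12723 genes tested (grey), the 8 Gimap genes (red) and Tcf7 (purple diamond). The Gimap genes lie at the well-expressed end, within 0.30 of 0 on the log2 scale, and Tcf7 lies at -2.22.

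The members did not share a single pattern over the 4 libraries. The mean of their log2 levels, each centred on its own mean, was 0.00 and -0.10 in KO libraries and 0.05 and 0.04 in WT libraries. By Euclidean distance from that mean pattern over 4 libraries, Gimap3 was the nearest member (0.111) and Gimap7 the farthest (0.402). Among other genes the 5 nearest were Babam1 (0.0149), Clcc1 (0.0183), Ftl1 (0.0201), Nup85 (0.0235) and Sash3 (0.0261). Nearer than Gimap3 were 279 of the 12715 other genes, and nearer than Gimap7 were 4542. The mean pattern was taken over the members themselves, so their distances are not on a par with those of other genes.

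Other genes of lymphocyte survival were counted from lists. In the Bcl2 family, whose members hold or release apoptosis at mitochondria and several of which bind Gimap proteins, 16 of 17 listed genes passed the filter, and edgeR called none over all genes. Their median log2 fold change was 0.10. Mcl1, an inhibitor of apoptosis needed by NK cells, had 592 and 490 CPM in KO libraries and 575 and 523 CPM in WT libraries. Bcl2 had 132 and 330 CPM in KO libraries and 121 and 189 CPM in WT libraries, with the groups overlapping. DESeq2 called 1 member higher, Pmaip1, which encodes the death-promoting protein Noxa, at 28.4 and 34.3 CPM in KO libraries against 13.9 and 12.1 CPM in WT libraries (log2 fold change 1.27, SE 0.24, DESeq2 adjusted p = 0.0318, edgeR adjusted p = 1.00). Of all genes tested, DESeq2 called 0.558%. Pmaip1 was chosen after its values were seen.

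In the autophagy list, which holds the Gabarap and LC3 genes and is the pathway Gimap6 takes part in, all 14 genes passed the filter and neither edgeR nor DESeq2 called one. The median log2 fold change was -0.01. Gabarapl2, whose protein is the known partner of Gimap6, had 95.3 and 70.0 CPM in KO libraries and 82.4 and 62.7 CPM in WT libraries (log2 fold change 0.19, SE 0.27). Highest in the list were Sqstm1, an autophagy cargo receptor (log2 fold change -0.05, SE 0.20), and Map1lc3b (0.02, SE 0.23).

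Of 5 receptor genes for survival cytokines, all passed the filter and edgeR called none over all genes. Their median log2 fold change was -0.18, and 5 of 5 lay below 0, where 51.8% of all genes did. Il2rb and Il2rg, the chains through which interleukin 15 keeps NK cells alive, had log2 fold changes of -0.09 (SE 0.29) and -0.18 (SE 0.27), each smaller than its SE. Il7r, the interleukin 7 receptor chain, stood at 0.648 and 1.08 CPM in KO libraries and 9.38 and 5.80 CPM in WT libraries, and DESeq2 called it lower (adjusted p = 1.68e-05). Of all genes tested, DESeq2 called 0.558%. Of 5 genes reported in connection with Gimap5 signalling, none was called by edgeR or DESeq2. The highest, Ctnnb1, which encodes beta-catenin, the partner of Tcf-1, had a log2 fold change of 0.10 (SE 0.18), and Foxo1, a quiescence factor lost from Gimap5-deficient lymphocytes, -0.25 (SE 0.45).

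Gimap genes are also expressed by T cells, B cells and endothelial cells, so markers of these and of other blood cells were followed. The 14 T cell markers, of which 12 passed the filter, summed to 352 and 190 CPM in KO libraries and 330 and 253 CPM in WT libraries. Most of this sum came from Trbc1 and Trbc2, and neither was called. Trbc1 had 84.7 and 56.0 CPM in KO libraries, against 92.5 and 64.5 CPM in WT libraries (log2 fold change -0.16, SE 0.33). Trbc2 had 120 and 65.0 CPM in KO libraries, against 121 and 96.9 CPM in WT libraries (-0.24, SE 0.36). DESeq2 called 2 of the 12 T cell markers in opposite directions, against 0.558% of all genes tested. Trac, which encodes the constant part of the receptor's alpha chain in T cells, had 94.0 and 36.1 CPM in KO libraries against 5.88 and 8.30 CPM in WT libraries (log2 fold change 3.20, SE 0.57, DESeq2 adjusted p = 7.04e-06). Icos, a co-stimulatory receptor, had 2.80 and 3.80 CPM in KO libraries against 10.6 and 12.3 CPM in WT libraries (log2 fold change -1.79, SE 0.30, DESeq2 adjusted p = 0.00377). Cd28, another co-stimulatory receptor, had 39.9 and 23.1 CPM in KO libraries against 88.9 and 64.7 CPM in WT libraries and was not called (log2 fold change -1.29, SE 0.37). The CD3 chain genes Cd3d, Cd3e and Cd3g, which define T cells, came to 8.80 and 5.19 CPM in KO libraries and 7.51 and 5.22 CPM in WT libraries.

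The 9 B cell markers, of which 7 passed, summed to 448 and 223 CPM in KO libraries and 245 and 172 CPM in WT libraries, and DESeq2 called none. Most of this sum came from the immunoglobulin genes Ighm and Igkc, and Igkc had 215 and 38.4 CPM in KO libraries against 50.1 and 22.5 CPM in WT libraries. The B cell surface genes Ms4a1, Cd79a and Cd79b came to 19.9 and 6.49 CPM in KO libraries and 14.4 and 8.81 CPM in WT libraries. Of 10 endothelial markers, 2 passed the filter, and Emcn and Cldn5 had no count in any library. Leaving out Pecam1, which leukocytes also express, the other 9 endothelial markers came to 1.06 and 0.666 CPM in KO libraries and 0.923 and 0.815 CPM in WT libraries.

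Of 12 myeloid markers, the 11 other than Fcer1g, which NK cells express, summed to 586 and 88.3 CPM in KO libraries and 152 and 25.8 CPM in WT libraries. DESeq2 called 2 of the 12 higher, against 0.558% of all genes tested in either direction. These were the neutrophil granule genes Mpo (adjusted p = 1.08e-05) and Elane (6.65e-04). Mpo stood at 11.3 and 2.97 CPM in KO libraries, against 0.246 and 0.0255 CPM in WT libraries. The 7 erythroid markers found summed to 207 and 123 CPM in KO libraries and 40.2 and 29.3 CPM in WT libraries, and DESeq2 called the hemoglobin genes Hba-a1 (adjusted p = 3.27e-06), Hba-a2 (6.37e-08) and Hbb-bs (0.00451) higher. The DESeq2 calls of erythroid markers also stand against 0.558% of all genes tested. edgeR called none of the markers over all genes. In both genotypes the T cell, B cell, myeloid and erythroid sums were higher in library 1 than in library 2, as were Gimap4, Gimap6 and Gimap9. Gimap1, Gimap3, Gimap5 and Gimap8 were lower in library 1 in both genotypes, and Gimap7 was higher in library 1 in KO only. The 10 NK cell markers also summed higher in library 1. They came to 35560 and 28308 CPM in KO libraries 1 and 2 and 33394 and 28110 CPM in WT libraries 1 and 2. Gzma held the largest part, at 20483 and 11889 CPM in KO and 17541 and 12325 CPM in WT libraries. The markers did not move together. Prf1, Itgam, Eomes and Tbx21 were lower in library 1 in both genotypes, and Ncr1, Klrb1c, Klrk1, Klrg1, Gzma and Cd7 were higher. The part of the other cell types in the Gimap levels was not tested.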

How the data were processed

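The authors deposited raw read counts per Entrez gene, with a gene length, per the file headers. Counting used featureCounts and the mm10 build, according to the submitters' processing notes. The labels name neither an aligner nor a strand setting. The 4 single-sample files equalled the table of the series, which held 0 columns without a sample. Symbols and positions came from RefSeq GRCm38.p6 (25275 of 26611 gene numbers, 95.0%), exon models and transcripts from GENCODE M21. Promoter windows matched all 8 members by symbol.

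Genes were kept with filterByExpr (minimum count 10), which left 12723, all 8 members among them. Genotypes were compared with edgeR 4.0.16 under R 4.3.3 (TMM factors, robust quasi-likelihood test, genotype alone in the design), two-sided, with Benjamini-Hochberg adjusted p under 0.05 over all genes. Intervals of 95% came from its SE and degrees of freedom. Alternatives were unfiltered genes, size factors of DESeq2, plain library sizes, the Wald test of DESeq2 1.42.0, limma 3.58.1 voom, the replicate number as a block, each library left out, and Gimap3 and Gimap5 summed. Ratios within a library number used 0.1 CPM added to each value. Log2 levels for patterns used a prior count of 2. The edgeR test was also run on simulated counts, with levels and spread taken from the fit to these data.

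The members, lists and naming rule were chosen with earlier results of these data known. All members were named, with the 5 genes nearest in pattern, the 3 highest neighbours, and the 2 highest members of a list where none passed. Gabarapl2, Sspo, Cd28, Igkc, Klrg1 and the DESeq2 calls among list members were added after their values were seen. So were Trbc1, Trbc2 and the NK cell markers named for their difference between library 1 and library 2. GENCODE exon lengths as an alternative for RPKM were also added after seeing the data. No 2 libraries were copies (chi-square per degree of freedom 34.6 to 266). The lowest values lay between libraries of the same number, KO 2 with WT 2 (34.6) and KO 1 with WT 1 (64.0). The 2 libraries of a genotype gave 266 in KO and 137 in WT. Intervals on counts cover counting error only. A B cell marker is not reported here and is left out of its list.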

Additional observations from a re-analysis of the deposited data

How the results depend on the processing

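Over 82 refits of single members, none was called, 74 kept the sign and 8 turned it. The turned values were Gimap7 at -0.25 without KO library 1 and -0.02 without WT library 1, Gimap9 at -0.12 without KO library 1 and -0.05 without WT library 2, Gimap5 at -0.040 without KO library 2, -0.01 without WT library 1 and -0.072 with Gimap3 added to it, and Gimap4 at 0.037 without WT library 1. Across refits without 1 library each, log2 fold changes ran from -0.29 to -0.06 for Gimap1, -0.12 to -0.05 for Gimap3, -0.17 to 0.037 for Gimap4, -0.040 to 0.087 for Gimap5, -0.38 to -0.18 for Gimap6, -0.25 to 0.37 for Gimap7, -0.18 to -0.14 for Gimap8 and -0.12 to 0.16 for Gimap9.

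The count of genes called, 0 in the main fit, was 35 with no filter, 71 with DESeq2 and 221 with the replicate number as a block, and ran from 0 to 53 with 1 library left out; the cause was not tested. The labels do not say that the numbers pair mice, but the differences between library 1 and library 2 in KO and in WT correlated across genes (r = 0.73, 12723 genes, no p). With the block the SE of every member was smaller than in the main fit, from 0.12 (Gimap5) to 0.19 (Gimap7). No member was called with the block, and Gimap6 had the smallest p (log2 fold change -0.30, SE 0.13, edgeR unadjusted p = 0.0527, adjusted p = 0.473). Over all refits Gimap6 had adjusted p-values of at least 0.473. With 1 library left out, the lone library is assumed to vary like the other genotype's pair. The labels name separate mice, and 2 per genotype limit what can be resolved.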
